A study of Homo sapiens with 6 samples.

Results

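A set of 595 spots of a custom array lay at background in INA-6 cells deprived of interleukin-6 (IL-6) and above background 1 h after the cytokine was returned. None of these spots carries a gene symbol. Background here stands for the median of an array over all its spots, which is not a detection limit. The 595 spots were chosen on 3 conditions. All 3 withdrawn values were at or below the median of their own array over all spots, all 3 restimulated values were above it, and the mean restimulated value exceeded the mean withdrawn value by 0.5 or more on the log2 scale. The array has 243504 spots, of which 216288 have no symbol, so the set was 0.275% of the unnamed spots. Of all spots, named and unnamed, 0.247% met these conditions. Because the conditions use the contrast between the groups, the levels and differences of the 595 spots are given as a description and without a test.

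INA-6 is an established human multiple myeloma cell line that depends on IL-6. It is a single line, and nothing here shows how other myeloma cells respond. The arrays, called nONCOchip, were read in a single color (Cy3). The withdrawn arrays, 3 in number, held total RNA of INA-6 cells kept without IL-6 for 13 h, and 3 restimulated arrays held total RNA of cells that went through the same 13 h withdrawal and then received IL-6 for 1 h. The labels number the samples as biological replicates without saying that they came from separate cultures, so the spread between arrays may in part be technical. Below, R1, R2 and R3 stand for the restimulated arrays and W1, W2 and W3 for the withdrawn arrays. All levels are log2 intensities normalized between arrays.

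IL-6 binds its receptor together with the shared chain gp130, and the kinases bound to that chain phosphorylate the transcription factor STAT3. STAT3 dimers then enter the nucleus and bind short palindromic elements, and genes such as SOCS3, which encodes a feedback inhibitor of the receptor, are transcribed within minutes. In INA-6 cells this pathway maintains survival. Signaling pathways also switch on transcripts outside protein-coding genes, among them long non-coding RNAs and unspliced transcripts of introns or intergenic DNA, many of which are kept at very low levels until a stimulus arrives. An array can register them only if probes were placed there.

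According to the methods, nONCOchip carries a commercial set of mRNA probes, probes for known and predicted non-coding RNAs, and probes for regions that had changed on whole-genome tiling arrays during the cell cycle, on p53 induction or on IL-6 treatment. Regions of unknown orientation received probes for both strands, and longer regions received several probes. The IL-6 samples were the same as those hybridized to the tiling arrays, so part of the unnamed spots were placed where these very samples had responded. The number of responding unnamed spots is therefore not independent evidence of how common such responses are. Several of the 595 spots may belong to 1 transcript, some may lie in introns or on the opposite strand of coding genes, and control spots may be among the unnamed ones. Neither the target nor the probe sequence of a given unnamed spot was used here, and the spots are named by their row in the value table.

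Array medians lay between 6.84 and 6.85, and 0.719% to 0.900% of the spots of an array sat at the scanner ceiling. Over tested spots below the ceiling the correlation between arrays of a group was at least 0.982. Between arrays of different groups it was 0.978 to 0.988, so these ranges overlap. As orientation, the brightest SOCS3 probe measured 11.6 ± 0.170 in restimulated and 7.73 ± 0.188 in withdrawn cells (SD, n = 3). This is a difference of 3.87 ± 0.13 (SE, adjusted p = 0.00160, limma with Benjamini-Hochberg adjustment), with the restimulated arrays higher, as the labels have it. All 9 measured genes of the plasma cell list lay above the median on all 6 arrays, with means between 8.54 and 14.3. The same held for 4 of 6 T cell genes, 2 of 6 myeloid, 3 of 3 erythroid, 2 of 5 epithelial and 1 of 6 fibroblast genes. The highest T cell mean was at the ceiling of 16. Of 27216 named spots 18613 lay above the median on at least 3 of 6 arrays, so these counts do not identify a cell type. Among these other lists 1 gene passed the limma test, PDGFRA, and the part of other cells in the results below was not tested.

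The spot with the largest rise was 233791. It measured 10.36, 10.26 and 10.34 on R1, R2 and R3 and 6.53, 6.42 and 6.46 on W1, W2 and W3. The restimulated values were close together (SD 0.06), and the spot ranked first both by its mean difference, 3.85, and by the distance from its lowest restimulated to its highest withdrawn value, 3.73. A value at or below the median may hold signal of the transcript or none, since the median is not a detection limit. Measured against the array medians in place of the withdrawn values, the rise was at least 11.1-fold.

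Spot 241213 measured 9.71, 9.35 and 9.57 in restimulated and 6.44, 6.42 and 6.83 in withdrawn cells. Its W3 value was just below the median of that array, and the other withdrawn values were clearly lower. The mean difference was 2.98, or at least 6.50-fold against the array medians. Spot 208958 measured 8.81, 9.01 and 8.66 against 6.44, 6.42 and 6.72, a difference of 2.29. Spot 237254 measured 8.86, 8.49 and 8.52 against 6.47, 6.39 and 6.39, a difference of 2.21. These were the only spots besides the first with more than 1.9 between the lowest restimulated and the highest withdrawn value.

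In the next 4 spots by size the rise was also 2 or more. Spot 203359 measured 9.18, 8.81 and 8.62 against 6.71, 6.69 and 6.79, and spot 170786 measured 9.10, 8.66 and 8.43 against 6.53, 6.74 and 6.52. Spot 216752 measured 9.08, 8.78 and 8.53 against 6.71, 6.74 and 6.68. Spot 225737 measured 9.12, 8.63 and 8.30 against 6.54, 6.60 and 6.84. In all 4 R1 was the highest and R3 the lowest restimulated array, while the withdrawn arrays showed no common order. The 12 spots that complete the largest 20 had differences between 1.78 and 1.96, restimulated means from 8.25 to 8.56 and withdrawn means from 6.41 to 6.72. In spot 211108, at 8.06, 8.50 and 8.50 against 6.51, 6.37 and 6.39, R1 was the lowest restimulated array. R1 was the highest in 18 of the 20.

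**Figure D1:**
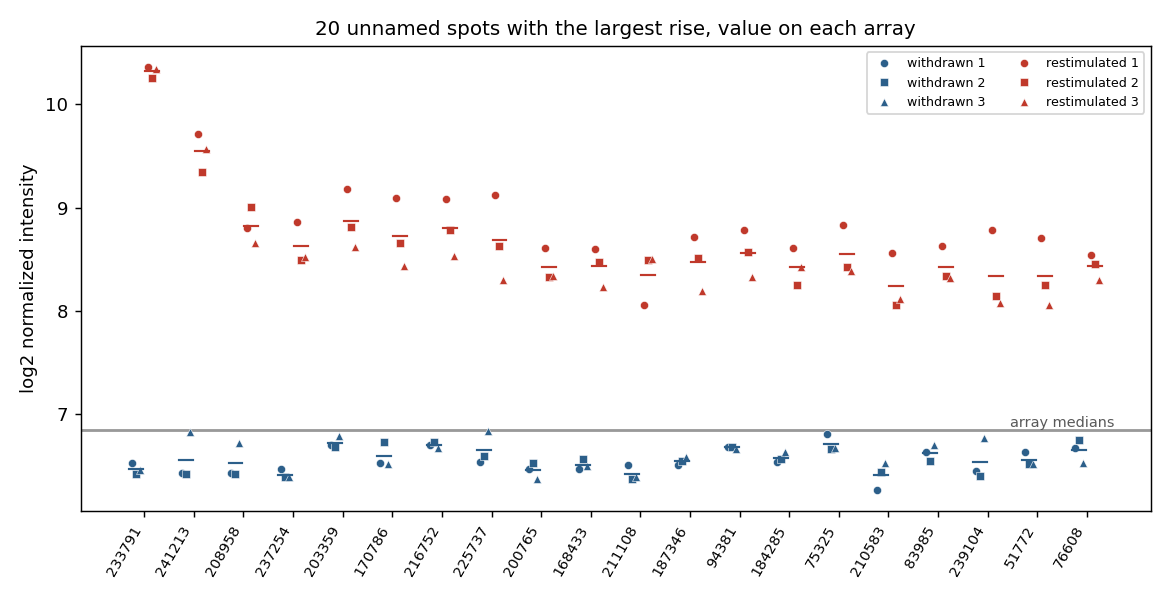
Log2 normalized intensity (y axis) on each of the 6 arrays for the 20 unnamed spots with the largest mean rise (x axis, row number in the value table), with red symbols for restimulated and blue for withdrawn arrays, short lines for group means and the grey band for the array medians between 6.84 and 6.85. All withdrawn values sit at or below the band, and the first spot stands at 10.32 on average while the spots after the second have restimulated means of at most 8.87.

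Most of the 595 spots changed far less. The mean difference had a median of 0.74, an interquartile range of 0.60 to 0.97 and a range of 0.50 to 3.85, which corresponds to a median 1.67-fold rise. A rise of 0.75 or more was found in 285 spots and of 1 or more in 137. Over all tested spots 0.83% rose by 1 or more. A rise of 1.5 or more was found in 43 spots, of 2 or more in 8 and of 3 or more in 1. Against the array medians the median rise was at least 1.42-fold, with a range from 1.07-fold to 11.1-fold. The restimulated means ran from 6.94 to 10.32 with a median of 7.36, so that the typical spot ended little more than 0.5 above the array median. It also started not far below it, as the withdrawn means had a median of 6.62. Over all 99942 unnamed spots at or below the median on all withdrawn arrays, the withdrawn means had a median of 6.50 and a 75th percentile of 6.59.

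The values at the edge of the selection show what the smallest differences look like. The last spots inside it, 32839, 234338 and 209504, differed by 0.5012, 0.5008 and 0.5007. The first spots outside, 165296, 62541 and 4038, differed by 0.4994, 0.4989 and 0.4989. Spot 32839 measured 7.36, 7.29 and 6.91 against 6.76, 6.79 and 6.52, and spot 165296 measured 7.26, 7.18 and 7.16 against 6.72, 6.55 and 6.83. Without a minimum difference 1089 unnamed spots had their groups on opposite sides of the median. A further 469 spots met the minimum difference and failed the condition on levels on a single array. That array was W1 in 148, W2 in 142, W3 in 92, R3 in 61, R2 in 20 and R1 in 6. Near misses were thus mostly spots that stood above the median on 1 withdrawn array.

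The 3 restimulated values did not overlap the 3 withdrawn values in any of the 595 spots, as the selection requires. Over all tested spots 8.83% had restimulated values above all withdrawn values. The distance between the lowest restimulated and the highest withdrawn value had a median of 0.51. It was under 0.1 in 4 spots, at least 0.5 in 304 and at least 1 in 73. Of the 20 spots with the largest difference, 17 were also among the 20 with the widest distance. The mean difference was a median of 4.56 times the larger of the group SDs, and in 47 spots it was less than 2 times that SD. A fit with limma across all 122102 tested spots called 360 of the 595 at an adjusted p of 0.05 or less, all of them higher, where 1.74% of all tested spots were called higher, 1.83% were called in either direction, and 1.97% of the unnamed tested spots were called higher. Between 53 and 207 of the 595 were called when any 1 array was left out. Nothing is read from these counts, since the selection used the same contrast. The filter for testing also depended on it. It asks for values above the median on at least 3 arrays, and each of the 595 met it only through the 3 restimulated arrays. With all 243504 spots tested in place of the filtered ones, 325 of the 595 were called.

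The SD had a median of 0.172 over the restimulated and of 0.0867 over the withdrawn arrays, and it was larger in the restimulated group in 473 of the 595 spots. The selection caps the withdrawn values at the array median and leaves the restimulated values free, so a smaller withdrawn spread is partly built in. Over all tested unnamed spots the median SDs were 0.132 in the restimulated and 0.143 in the withdrawn group. A few rises rested largely on 1 array. In 6 spots a single restimulated array exceeded the other 2 by 1 or more. The most extreme, spot 83721, chosen here after its values were seen, measured 6.96, 10.11 and 7.10 on R1, R2 and R3 and 6.66, 6.75 and 6.71 on W1, W2 and W3. Its mean difference of 1.35 shrank to 0.32 over R1 and R3 alone. In 468 of the 595 spots the mean of the 2 lower restimulated values was still 0.5 or more above the withdrawn mean.

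Across the 595 spots the restimulated arrays ranked the spots alike and the withdrawn arrays hardly did. Correlations between restimulated arrays lay between 0.761 and 0.776, between withdrawn arrays between 0.310 and 0.473, and across the groups between 0.056 and 0.134. These describe spots that share arrays, normalization and a narrow range of withdrawn values, which spanned 6.18 to 6.82 in their means.

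The opposite pattern was less frequent. With the groups exchanged, 32 unnamed spots met the same conditions, which is 18.6 spots switched on for each spot switched off. Among all tested unnamed spots 3978 rose and 1196 fell by 0.5 or more, or 3.33 rises for each fall. Spots that met the conditions made up 15.0% of these rises and 2.68% of these falls. At a difference of 1 or more, 137 spots were switched on and 2 switched off, and at 1.5 or more the numbers were 43 and 0. The ratio depended on the settings. With no minimum difference it was 3.33 (1089 and 327 spots), and with a minimum of 0.25 it was 4.47. The first equals the ratio of all rises and falls of 0.5 or more, which is a different set of spots. With the 60th or 75th percentile of the array as background it was 21.4 or 49.1, and with the median of the spot's own block of the grid 20.6. Leaving out 1 array lowered the ratio to 8.78 without R1, 12.8 without R2, 9.41 without R3, 7.71 without W1, 7.10 without W2 and 14.8 without W3.

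The largest falls rested on a single array. Spot 33809 measured 6.60, 6.58 and 6.71 in restimulated cells and 6.89, 7.03 and 10.22 on W1, W2 and W3. Spot 19335 stood at 6.87, 6.92 and 9.63 on the withdrawn arrays, and spot 15343 at 6.91, 6.89 and 9.30. In each of these W3 was far above W1 and W2, which were just above the median. In 16 of the 32 spots W3 exceeded the other withdrawn arrays by 0.5 or more, and 17 of the 32 lay in blocks 2 and 3 of the grid described below. Without W3 the exchanged conditions were met by 51 spots, of which 12 were among the 32.

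**Figure D2:**
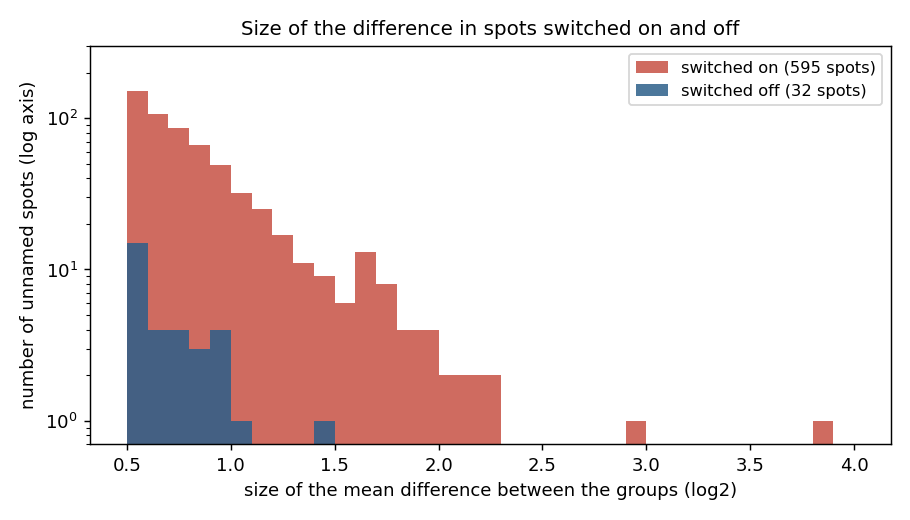
Number of unnamed spots (y axis, log scale) by the size of the mean difference between the groups in bins of 0.1 log2 (x axis), in red for the 595 spots switched on and in blue for the 32 switched off. Spots switched on extend to 3.85, and 2 spots switched off exceed 1.

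The selection treats the restimulated arrays alike, but the spots did not. R1 gave the highest restimulated value in 421 of the 595 spots (70.8%), R2 in 87 and R3 in 87. R3 gave the lowest in 312 (52.4%), R2 in 220 and R1 in 63. Among the 137 spots with a difference of 1 or more, R1 was the highest in 116 (84.7%). The median rise over the withdrawn mean was 0.90 on R1, 0.71 on R2 and 0.69 on R3. The withdrawn arrays showed no such order, with W1 highest in 182, W2 in 204 and W3 in 209 spots. The selection caps the withdrawn values at the array median, and how far this evens these counts was not tested.

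This order was shared by unnamed spots that started above background. Of the 2566 unnamed spots that lay above the median on all 6 arrays and rose by 0.5 or more, R1 was the highest restimulated array in 67.1%, and the median rises were 0.90, 0.73 and 0.70. Withdrawn values of these 2566 were not capped and did show an order, with W3 lowest in 53.7% and W2 highest in 42.8%. Over all tested unnamed spots below the ceiling except the 595, the 2566 included, the shares were 33.7%, 30.0% and 36.3% for R1, R2 and R3. Quantile normalization does not fix which array is highest at a spot, and how far it evens these shares was not tested. In the withdrawn group of the same spots W1 was the lowest in 27.1%, W2 in 30.4% and W3 in 42.6%. Named spots with the same size of response showed another order. Of 135 named spots above the median on all arrays with a rise of 0.5 or more, R1 was highest in 52, R2 in 52 and R3 in 31, with median rises of 0.80, 0.81 and 0.70. Among the 83 named spots called higher by limma the counts were 29, 34 and 20. The difference between named and unnamed spots in this order was not tested, since both were measured on the same 3 arrays.

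**Figure D3:**
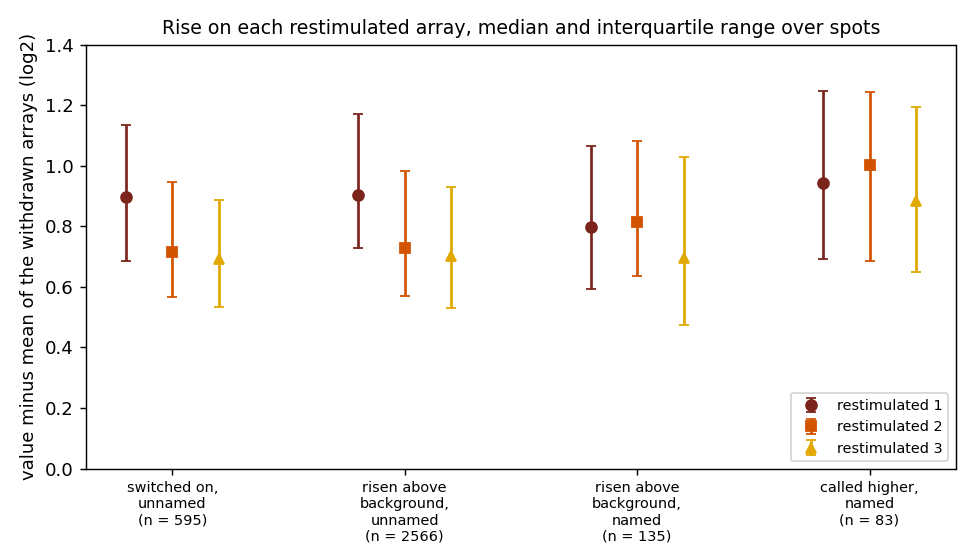
Rise of the value on each restimulated array over the mean of the withdrawn arrays (y axis, log2), shown as the median (symbol) and interquartile range (bar) over spots, for the 595 unnamed spots switched on, the 2566 unnamed and 135 named spots that rose by 0.5 or more from above background, and the 83 named spots called higher. In both unnamed sets R1 has the highest median (0.90), and in both named sets R2 has it (0.81 and 1.00).

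The rise was seldom shared by the surrounding area of the slide. Spots of the 595 were left out when neighbours were averaged. The 8 spots around each of the 595 then had a mean difference with a median of 0.006 (interquartile range -0.04 to 0.06), against -0.004 around all unnamed spots. With the 595 kept as neighbours, the median around the 595 was 0.010. At 2 to 5 steps from the spot the median stayed between 0.007 and 0.009. Only 18 of the 595 had another of the 595 next to them. The neighbours averaged 0.25 or more around 9 of the 595 (1.51%) and around 0.630% of all unnamed spots, and they averaged 0.5 or more around none of the 595.

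The 595 spots were not evenly spread over the grid. Its first 456 lines held 197 and its last 456 lines 398, although unnamed spots numbered 108279 and 108009. Of the 2566 unnamed spots that rose from above background, 1416 lay in the first lines and 1150 in the last. Over 16 blocks, 4 across and 4 down, the number of spots switched on ran from 9 to 67. The signal itself differed by position. Block medians deviated from the median of the whole array by -0.33 to 0.15, and the last lines had a median of 6.75 against 6.93 in the first. The number of unnamed spots at or below the whole-array median on all withdrawn arrays ran from 5013 to 7900 per block. For every 1000 of these the blocks held between 1.80 and 8.90 spots switched on.

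With the median of the spot's own block as background, an alternative added after seeing the data, 576 unnamed spots met the conditions. They included 14 of the largest 20, and they were divided into 276 in the first and 300 in the last lines. Blocks then held 21 to 49. The total was thus close to that with the whole-array median, while the spread over the grid was more even and 426 of the 595 were kept.

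**Figure D4:**
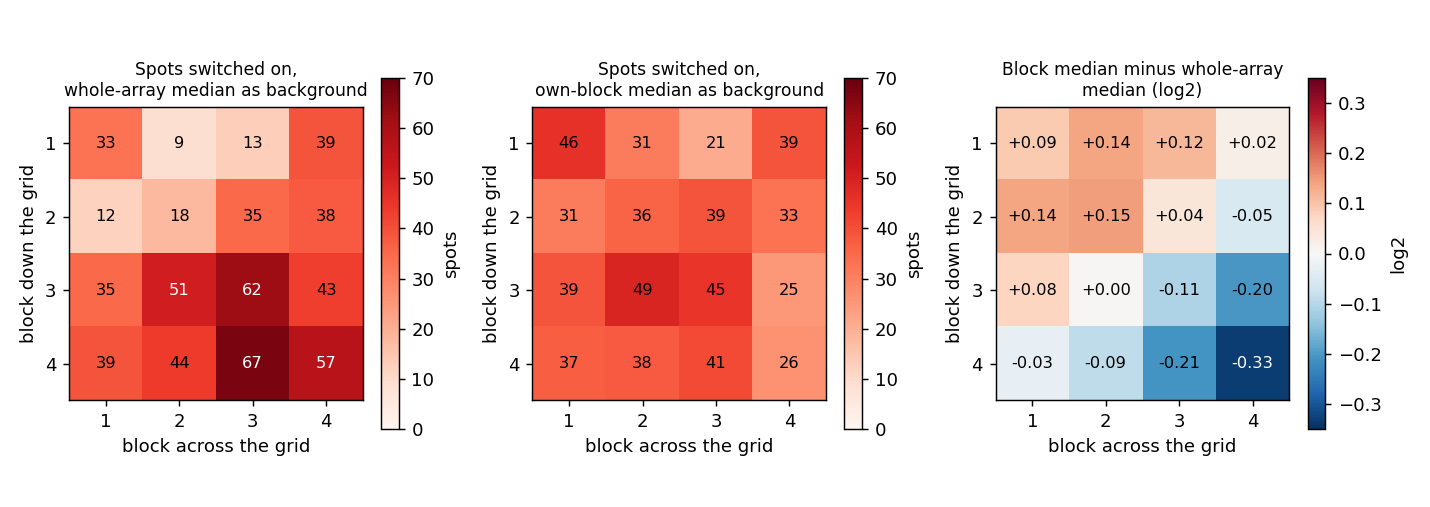
Maps of the array grid in 4 by 4 blocks, with the block number across on the x axis and down on the y axis. The left and middle maps give the number of unnamed spots switched on with the whole-array median (9 to 67 per block) and with the own-block median (21 to 49) as background, and the right map gives the block median minus the whole-array median in log2 units (-0.33 to 0.15).

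Of 27216 spots with a gene symbol, 6 met the same conditions, which is 0.0220% of the named spots. Named spots were less often at background to begin with, and of the 7337 at or below the median on all withdrawn arrays 0.0818% met the conditions, against 0.595% of the 99942 unnamed spots. Gene names rest on an inferred match between table rows and probes, described under the processing. The 6 spots are named here as transcripts of known identity that show the same pattern. Their values are a description too.

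BCL6, a transcriptional repressor of germinal center B cells and a known STAT3 target, measured 8.38, 8.35 and 8.26 in restimulated and 6.44, 6.47 and 6.53 in withdrawn cells. The difference of 1.85, at least 2.80-fold against the array medians, would place it within the 20 largest rises of the unnamed spots. VMP1, a membrane protein needed to form autophagosomes whose locus overlaps the miR-21 precursor, measured 8.04, 7.89 and 7.80 against 6.42, 6.42 and 6.46. MAP3K8, a kinase that activates the MEK and ERK pathway, measured 8.13, 8.10 and 7.92 against 6.76, 6.62 and 6.80. These 3 genes had narrow groups far apart from each other.

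DEPP1, a gene activated by FOXO factors, measured 7.32, 7.88 and 8.24 against 6.69, 6.75 and 6.64. Its R3 value was the highest and its R1 value the lowest, opposite to the common order of the unnamed spots. RUNX1, a transcription factor of blood cell development, measured 7.59, 7.38 and 7.14 against 6.77, 6.63 and 6.78. ABCA1, an exporter of cellular cholesterol, measured 7.33, 7.16 and 7.03 against 6.64, 6.55 and 6.61. Both rose by less than 0.65, with R1 highest and R3 lowest among the restimulated arrays.

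Other probes of the same genes show how far the pattern belongs to a probe rather than to a gene. A second VMP1 probe lay well above background in both groups, at 11.20, 11.19 and 10.92 against 9.21, 9.41 and 9.07, and differed by 1.87. A second DEPP1 probe measured 9.80, 9.97 and 10.21 against 8.12, 8.08 and 7.63 and differed by 2.05. One further ABCA1 probe measured 9.18, 9.20 and 9.16 against 8.01, 8.14 and 8.18, a difference of 1.07, and another differed by 0.30 around background. A RUNX1 probe at 7.99, 7.80 and 7.94 against 7.37, 7.48 and 7.41 differed by 0.49, and another reached the ceiling of 16 on R1 and on W3, so that no difference is given for it. For VMP1, DEPP1, ABCA1 and RUNX1 another probe of the gene was thus above background in withdrawn cells. BCL6 and MAP3K8 had no other probe with their symbol, so this comparison cannot be made for them.

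**Figure D5:**
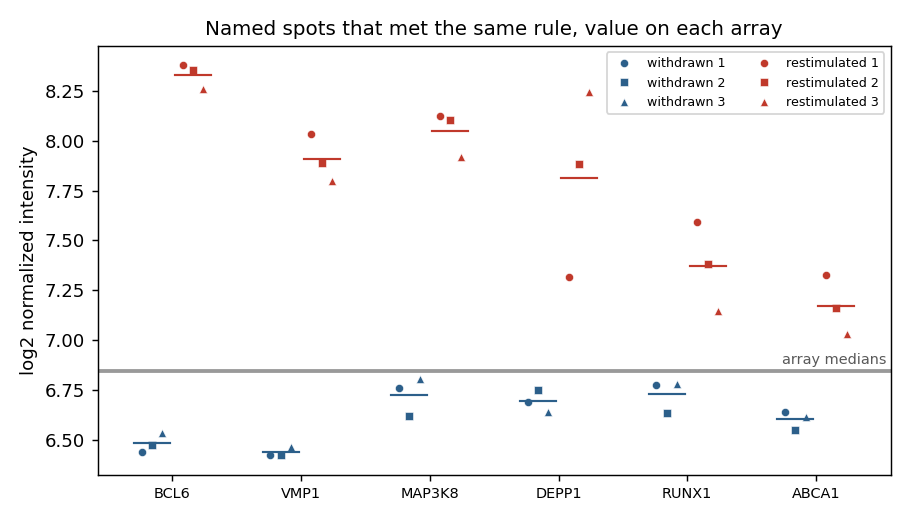
Log2 normalized intensity (y axis) on each of the 6 arrays for the 6 named spots that met the conditions (x axis, gene symbol), with red symbols for restimulated and blue for withdrawn arrays, short lines for group means and the grey band for the array medians. BCL6 shows the widest separation, from 6.53 to 8.26, and DEPP1 the widest restimulated spread, from 7.32 to 8.24.

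Promoters of these 6 genes were searched for TTCNNNGAA, the palindromic core bound by STAT dimers. The sequences are from RefSeq (GRCh38.p14) and run from 250 bases before to 50 bases after an annotated start. The motif reads the same on both strands. Of 9 windows of the 6 genes 1 held it, and of all 35116 windows 7.66% did. That window belongs to BCL6 and held 4 matches, a number reached or exceeded by 7 windows of the whole table, and the second BCL6 window held none. Of the 6 named spots the BCL6 spot came closest in size to the largest unnamed rises, and only a BCL6 window held matches. The stretch with 3 of the 4 matches is therefore shown. It lies on the minus strand at chr3:187745444-187745518 and spans 50 bases before and 25 bases from the start onward, with the matches in capitals.
BCL6: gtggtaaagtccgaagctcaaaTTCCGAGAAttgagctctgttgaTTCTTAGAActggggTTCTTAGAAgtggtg
A match of letters describes the sequence and does not show binding, and the windows without a match say only that these letters are absent there. No such search was made for the unnamed spots.

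Lists of genes give the setting of these responses among named genes. They were drawn from general knowledge but with earlier results of these data known, so their counts are a description and not independent evidence. Of the STAT3 and IL-6 feedback list 36 genes were tested, 15 were called higher and 0 lower, with a median difference of 0.41 against 0.01 over all 12703 genes. Of all these genes 0.417% were called higher. BCL6 and VMP1 of this list had spots that met the conditions. Other called genes of the list started from different levels. In withdrawn cells JUNB measured 12.1 and MCL1 11.3, while PIM1 measured 6.97, just above the array median. Of 38 tested immediate early genes 10 were called higher and 0 lower, with a median of 0.09, and MAP3K8 had a spot that met the conditions. Of 20 tested long non-coding RNAs 1 was called, NEAT1, the scaffold of nuclear paraspeckles, which rose by 1.18 ± 0.13 (SE, adjusted p = 0.0174, limma with Benjamini-Hochberg adjustment) from 10.83 ± 0.231 to 12.0 ± 0.0805 (SD, n = 3). No long non-coding RNA of the list had a spot that went from background to above it. The median difference of that list was 0.10.

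The fixed set of reference genes was mixed. SOCS3, SGK1, JUNB, PIM1, MCL1 and NEAT1 of this set were called higher by limma, SGK1 with a difference of 2.72. The remaining genes of the set were MALAT1, MYC, GAPDH and ACTB. The brightest MALAT1 probe measured 14.7 ± 0.925 in restimulated and 14.3 ± 0.245 in withdrawn cells (SD, n = 3), and MYC measured 11.7 ± 0.280 and 12.0 ± 0.106. GAPDH measured 14.6 ± 0.172 and 14.8 ± 0.359, and ACTB was at the ceiling of 16 on all arrays, where a difference cannot be seen. None of these 4 passed the limma test.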

How the data were processed

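The 6 RNA samples were labeled with Cy3 after amplification from random T7 primers, hybridized to Agilent 244K custom arrays and scanned on a GenePix instrument. The deposited values are log2 intensities, 1 per spot and array, which the authors had brought to a common distribution by quantile normalization. Once sorted, the values of the arrays still differed by up to 0.199. R 2.9.0 and limma are listed in the submitters' processing notes. Background subtraction: not given in the sources used here. A difference between groups is therefore a change relative to the bulk of the spots. Arrays have no read depth, and with 3 per group their number limits the precision.

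Rows were matched to probes through the grid of 912 by 267 spots. This match is an inference. Probes of the same gene correlated in mean level with r = 0.431 over 7157 genes, and with r = 0.0190 when equal numbers were assumed. Symbols were brought up to date with a RefSeq table (GRCh38.p14). Accessions matched 23835 probes, current symbols 2495 and older symbols 854, while 32 stayed as they were, for 17411 genes. Promoter sequences came from the same source.

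A total of 122102 spots, those above their array's median on at least 3 of 6 arrays, entered a two-sided limma test (version 3.58.1, R 4.3.3, eBayes moderation) with Benjamini-Hochberg adjustment over all of them, a threshold of 0.05 and no replicate block. The negative control spots of the study's own filter could not be told apart by name. A gene was represented by its brightest tested probe. For a fold against background, a withdrawn value below the median of its array was set to that median. Counts, medians and ranges were computed in Python 3.11.15. The fit and the selection were tested on simulated data.

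Named spots were the 20 largest rises, the 5 widest distances between groups, the 3 spots on either side of the minimum difference, the 3 largest falls, all named spots that met the conditions, and a fixed set of reference genes. Not every spot so drawn is printed. The spots and gene lists were chosen with earlier results of these data known.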

Additional observations from a re-analysis of the deposited data

How the results depend on the processing

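The 595 spots depend on where background and the minimum difference are set. With the 60th or 40th percentile of the array as background 1005 or 268 spots met the conditions. Minimum differences of 0.25, 0.75, 1 and 2 left 984, 285, 137 and 8 spots, and no minimum 1089. Without R3 and W3, an alternative added after seeing the data, the count was 1064. Leaving out 1 array gave 562 to 788. With the 75th percentile the count was 834, of which only 23 were among the 595. Re-run quantile normalization (595) and centring on the mean (604) changed little.

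The 32 spots switched off became 17 with the 75th percentile, 220 with a minimum of 0.25, 2 with 1 and 327 with none, and 51 to 111 when 1 array was left out. The 6 named spots became 14 and 17 with the 60th and 75th percentiles, 20 with a minimum of 0.25, 33 with none, and 6 to 15 when 1 array was left out. Under equal row and probe numbers, where names are misplaced, 71 named and 530 unnamed spots met the conditions.

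By limma 2145 unnamed tested spots were called. An intensity trend with a robust prior gave 3702, leaving out spots at the ceiling 3443, and an interquartile range above 0.5 gave 3451. Re-run quantile normalization gave 2597, with 421 of the 595 among them in place of 360. Leaving out 1 array gave 302 to 995. Called spots among the 595 then numbered 148, 71 and 207 without R1, R2 and R3, and 53, 86 and 89 without W1, W2 and W3. As stated in the results, nothing is read from counts of called spots among the 595, in any of these settings. The labels do not say whether samples with the same replicate number were paired, and the correlations given next cannot settle it. Deviations of same-numbered arrays correlated at -0.01, -0.07 and -0.26, each below the highest correlation with another number (0.12 to 0.18). With the replicate number as a block limma called 0 unnamed spots and 0 of the 595 after adjustment, and 12313 and 586 at an unadjusted p under 0.05. The cause of these changes was not tested.

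With 3 arrays per group, precision at a single spot is limited. The difference was under 2 times the larger group SD in 47 of the 595, which include larger rises that rest on 1 array, such as spot 83721.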
